A study of Rattus norvegicus with 6 samples.

Results

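The genes described here are 10 genes of the spindle checkpoint and of mitotic kinase signalling, namely Bub1, Bub1b, Bub3, Mad2l1, Ttk, Plk1, Aurka, Aurkb, Cdc20 and Birc5. They were chosen by symbol, and all 10 were found among the 18631 genes of the deposited tables. All 10 also passed the low-count filter, which kept 13423 genes. Polyadenylated RNA of rat vascular smooth muscle cells, which give the vessel wall its tone, was sequenced in 3 libraries labelled MIAT knockdown and in 3 libraries with Scr in their titles and WT as their genotype, called Scr control here. MIAT is a long noncoding RNA that the title of the series ties, with the helicase DHX9, to progression through mitosis. Every library carries a label of siRNAs plus antisense oligonucleotides, 50 nM together, for 72 h, and the labels do not say what the control cells received, which vessel the cells came from, or whether the libraries are separate cultures. P-values therefore measure only the spread between these libraries, which may be technical.

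The spindle assembly checkpoint delays anaphase until every chromosome is attached to the spindle. The kinase TTK (also called MPS1) starts the signal at unattached kinetochores, BUB1 and BUB3 form a platform there, and MAD2, BUBR1 (the product of Bub1b) and BUB3 join CDC20 in a complex that holds back the anaphase-promoting complex (APC/C), the ubiquitin ligase that triggers chromosome separation. Aurora B and survivin (the product of Birc5) belong to the chromosomal passenger complex, which corrects faulty attachments, while Aurora A and PLK1 drive mitotic entry and spindle assembly. Transcripts of most of these genes are made mainly in late S, G2 and M phase, and they serve as proliferation markers.

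Total counts ranged from 17793811 to 20121161 per library. Miat itself was not analysed here, and how far it was knocked down is unknown, so group names follow the labels. The smooth muscle label was checked against 8 markers, whose summed level was 5261 to 7652 CPM (counts scaled by library size) in knockdown and 5946 to 7623 CPM in control libraries. Acta2 and Tagln carried most of this sum, while Myh11 was at 107 to 255 CPM in knockdown and 183 to 293 CPM in control libraries. Desmin (Des) was the marker at the lowest level, at 0.104 to 0.676 CPM in knockdown and 0.283 to 0.729 CPM in control libraries. Acta2, Myh11, Smtn, Lmod1 and Myocd were lower in knockdown in every same-numbered pair, while Tagln, Cnn1 and Des were not. Lmod1, at 127 to 142 CPM in knockdown and 150 to 191 CPM in control libraries, had groups that did not overlap. The same held in that direction for 11.8% of all tested genes. Markers of other cells varied. The endothelial cadherin gene Cdh5 was at 0 to 0.0536 CPM in knockdown and 0 to 0.0561 CPM in control libraries. The leukocyte gene Ptprc was at 0 to 0.0520 CPM in knockdown and 0 CPM in control libraries. Higher on the same lists were Kdr, at 0.830 to 3.43 CPM in knockdown and 1.87 to 7.59 CPM in control libraries, and Cd68. The latter was at 2.36 to 5.36 CPM in knockdown and 4.39 to 10.5 CPM in control libraries. All 8 endothelial markers summed to 5.42 to 6.28 CPM in knockdown and 7.63 to 10.3 CPM in control libraries, and the 5 macrophage and leukocyte markers in the table to 7.56 to 11.5 CPM in knockdown and 6.74 to 16.9 CPM in control libraries. A list of 5 fibroblast markers, carried mostly by Pdgfra and Lum, summed to 548 to 819 CPM in knockdown and 850 to 1178 CPM in control libraries, so the groups did not overlap. Pdgfra, at 261 to 458 CPM in knockdown and 405 to 674 CPM in control libraries, lay above Myh11 in every library. The part of the fibroblast list and of these smooth muscle differences in the results below was not tested.

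All 10 genes were higher in the libraries labelled MIAT knockdown. The rises were modest, from 1.20-fold for Bub3 to 1.59-fold for Birc5, and each gene was higher in 3 of 3 same-numbered pairs of libraries, as were 28% of all tested genes. In edgeR's quasi-likelihood test with the replicate number as a block, 10 of 10 passed an adjusted p of 0.05, while 10.5% of all tested genes passed in that direction. The median log2 fold change of the 10 genes was 0.49, against -0.01 over all tested genes. The test without the block, which the design set as the main one, called 0 of the 10 genes and 0% of all genes, with adjusted p from 0.104 to 0.302 for the 10. In that test 9 of the 10 were higher at an unadjusted p under 0.05, against 10.4% of all genes in that direction and 19.2% (2576 genes) in either. DESeq2 without the block called 5 of the 10 higher (Bub1, Bub1b, Ttk, Aurkb and Birc5) against 2.73% of all genes. The block was used because same-numbered libraries deviated together across genes, and the words rose and fell below refer to an edgeR adjusted p under 0.05 with the block. More dividing cells and more RNA of these genes per cell cannot be told apart in bulk RNA.

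**Figure D1:**
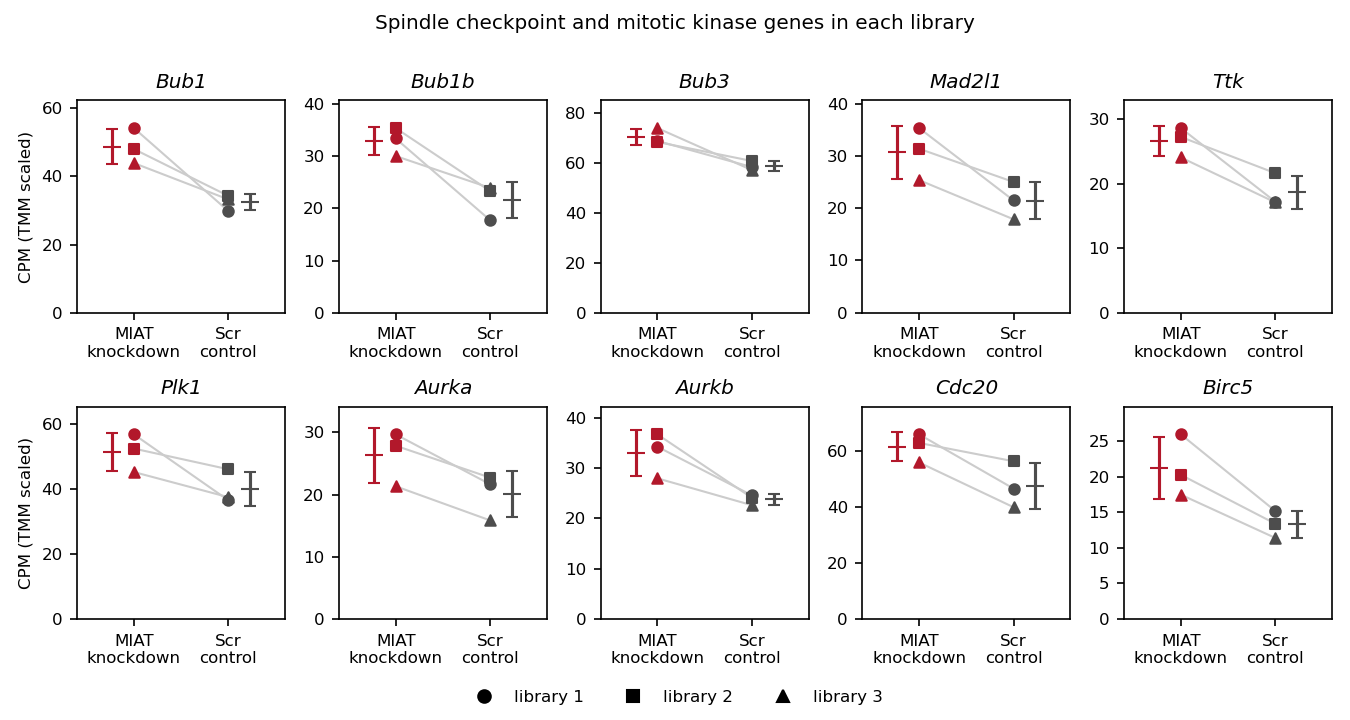
Level of each of the 10 genes in every library, in CPM after TMM scaling (y axis, from 0), with the 3 MIAT knockdown libraries left of the 3 Scr control libraries; lines join same-numbered libraries and bars give the mean and SD. Every line runs lower on the control side, and the groups overlap for Plk1, Aurka and Cdc20.

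Among the checkpoint genes, Bub1, whose kinase marks centromeric chromatin and recruits other checkpoint proteins, was at 54.2, 48.0 and 43.9 CPM in knockdown libraries 1 to 3, against 29.8, 34.3 and 33.3 CPM in control libraries 1 to 3. Its lowest knockdown library lay 9.63 CPM above its highest control library, the widest gap of the 10. Bub1 rose by a log2 fold change of 0.58 ± 0.095 (SE; edgeR adjusted p = 0.0055 with the block, 0.104 without it). Bub1b, which encodes the CDC20 inhibitor BUBR1, was at 33.4, 35.4 and 30.1 CPM in knockdown libraries, against 17.7, 23.3 and 23.9 CPM in control libraries. The groups were again apart, and control library 1 was the lowest. Bub1b rose by a log2 fold change of 0.61 ± 0.111 (SE; edgeR adjusted p = 0.0081 with the block, 0.113 without it).

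Ttk, the kinase that starts the checkpoint signal, was at 28.6, 27.2 and 24.0 CPM in knockdown libraries, against 17.2, 21.6 and 17.1 CPM in control libraries. It rose 1.43-fold, or 0.52 ± 0.099 on the log2 scale (SE; edgeR adjusted p = 0.0094 with the block, 0.126 without it). The groups did not overlap. Mad2l1, which encodes MAD2, was at 35.3, 31.4 and 25.4 CPM in knockdown libraries, against 21.5, 25.03 and 17.9 CPM in control libraries. Knockdown library 3 and control library 2 were nearly level, 0.358 CPM apart. Mad2l1 also rose 1.43-fold, or 0.52 ± 0.094 on the log2 scale (SE; edgeR adjusted p = 0.0082 with the block, 0.173 without it).

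Bub3, the WD-repeat partner of both BUB1 and BUBR1, rose least. It was at 68.7, 68.3 and 73.9 CPM in knockdown libraries, against 58.3, 60.7 and 57.1 CPM in control libraries. The groups did not overlap, and Bub3 was the only one of the 10 genes at its highest in knockdown library 3. Its log2 fold change was 0.26 ± 0.065 (SE; edgeR adjusted p = 0.0247 with the block, 0.135 without it). Its call was lost in DESeq2 with the block (0.25, adjusted p = 0.105), without pair 1 (0.28), without pair 2 (0.31) and with a correction for gene length (0.19, edgeR adjusted p = 0.0609).

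Of the kinases outside the checkpoint core, Plk1, a driver of mitotic entry, spindle poles and cytokinesis, was at 56.8, 52.4 and 45.2 CPM in knockdown libraries, against 36.5, 46.1 and 37.5 CPM in control libraries. Aurka, which encodes the spindle pole kinase Aurora A, was at 29.7, 27.9 and 21.3 CPM in knockdown libraries, against 21.7, 22.7 and 15.8 CPM in control libraries. For both genes knockdown library 3 lay below control library 2, so the groups overlapped, although every pair was higher. Plk1 rose by a log2 fold change of 0.36 ± 0.092 (SE; edgeR adjusted p = 0.0255 with the block, 0.191 without it). Aurka rose by 0.39 ± 0.084 on the log2 scale (SE; edgeR adjusted p = 0.0141 with the block, 0.302 without it), a call lost in DESeq2 with the block (0.38, adjusted p = 0.068). Aurkb, the kinase of the chromosomal passenger complex, was at 34.2, 36.7 and 27.9 CPM in knockdown libraries, against 24.5, 24.1 and 22.6 CPM in control libraries. Its groups were apart, and the control libraries lay within 2 CPM of each other. Aurkb rose by a log2 fold change of 0.46 ± 0.085 (SE; edgeR adjusted p = 0.0082 with the block, 0.125 without it).

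Cdc20, which encodes the APC/C activator that the checkpoint holds in check, was at 66.1, 63.0 and 56.0 CPM in knockdown libraries, against 46.7, 56.4 and 40.0 CPM in control libraries. The groups overlapped by 0.437 CPM. Cdc20 rose by a log2 fold change of 0.38 ± 0.081 (SE; edgeR adjusted p = 0.0142 with the block, 0.209 without it). Birc5, which encodes survivin, was at 26.0, 20.3 and 17.5 CPM in knockdown libraries, against 15.2, 13.4 and 11.4 CPM in control libraries. It showed the largest rise of the 10, in groups that did not overlap. Its log2 fold change was 0.66 ± 0.095 (SE; edgeR adjusted p = 0.0037 with the block, 0.135 without it).

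The calls of Bub1, Mad2l1, Ttk and Birc5 were made with the block whichever pair was left out. Without pair 1, 6 of the 10 were called, against 3.96% of all genes higher, and the calls of Bub3, Plk1 (log2 fold change 0.23), Aurka (0.36) and Cdc20 (0.32) ended. Without pair 2, 5 of the 10 were called, against 2.56%, and those of Bub1b (0.62), Bub3, Plk1 (0.46), Aurka (0.44) and Aurkb (0.39) ended. As a ratio, the log2 fold change of Plk1 moved most, being 0.23 without pair 1 and 0.36 with all pairs. Without pair 3 all 10 were called, against 14.1%. Other fits with the block called 8 of the 10 in DESeq2, all but Bub3 and Aurka (4.92% of all genes higher), 9 with the length correction (9.53%), and all 10 in limma-voom (10.8%), in limma on log2(FPKM + 1) (17.8%), with DESeq2 size factors (10.1%), with total counts (21%), with no low-count filter (8.49%) and with a mean of at least 1 CPM (11.1%).

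**Figure D2:**
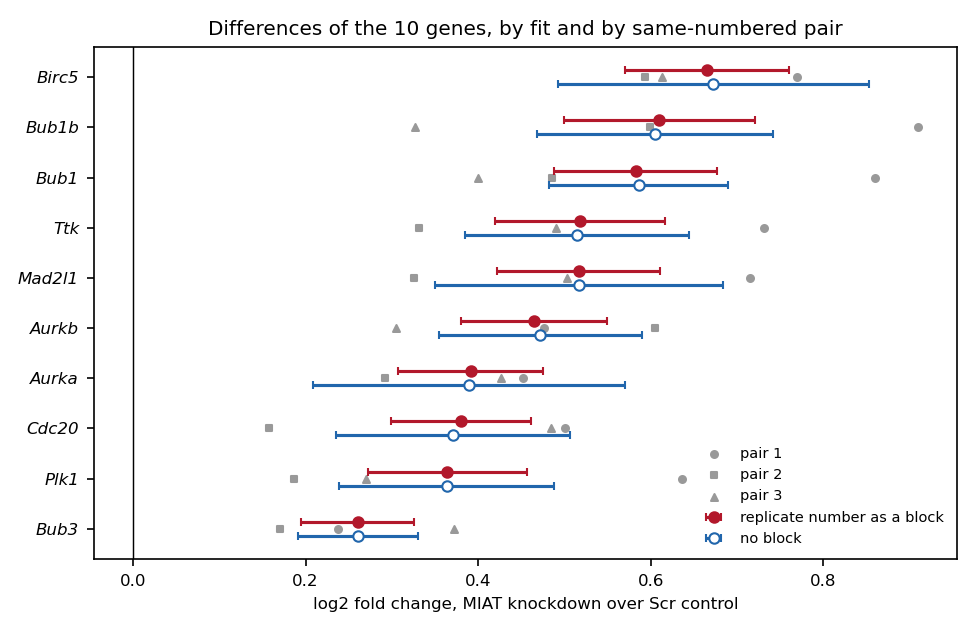
Log2 fold change of each gene, MIAT knockdown over Scr control (x axis), fitted by edgeR with the replicate number as a block (filled) and without it (open), each with its standard error; grey symbols give the log2 difference within each same-numbered pair. All values lie above 0, Birc5 at 0.66 and Bub3 at 0.26 with the block are the extremes, and pair 1 is the highest of the pairs for 8 genes.

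The size of the difference varied between pairs of libraries. Within pair 1 the log2 differences of the 10 genes ranged from 0.24 for Bub3 to 0.91 for Bub1b, with a median of 0.68. Within pair 2 they ranged from 0.16 for Cdc20 to 0.60 for Aurkb, with a median of 0.33, and within pair 3 from 0.27 for Plk1 to 0.61 for Birc5, with a median of 0.41. The median over all genes was between -0.01 and 0.00 in each pair. Libraries of the same group also differed. Knockdown library 3 was the lowest of its group for 9 of the 10 genes, all except Bub3, and control library 3 was the lowest of its group for 7. Control library 2 was the highest control for 7 of the 10. After removal of group means, the median Pearson correlation over the 45 pairs of these genes was 0.54 across the 6 libraries. Bub3 stood apart, with a mean correlation of -0.21 with the other 9, and Bub1b was next lowest at 0.19. These correlations share libraries and are a description. Summed over the 10 genes, the level was 433, 411 and 365 CPM in knockdown libraries, against 289, 328 and 277 CPM in control libraries. The sums of the groups did not overlap.

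For 7 of the 10 genes the groups did not overlap in CPM after TMM scaling, as did 14.2% of all tested genes in the same direction. In the deposited FPKM values, which are scaled by total counts and gene length, all 10 had groups that did not overlap, against 24.2% of all tested genes. With the block and total count scaling the all-gene median shifted by 0.107 on the log2 scale, and 77.5% of the called genes were higher (2822 higher, 819 lower), against 48.7% with TMM scaling (1412 higher, 1486 lower, the falls being 11.1% of tested genes). Relative to the median of all genes, the median of the 10 was 0.50 with either scaling. A change of scaling shifts all genes nearly alike, so this equality is built in and is no separate support. By log2 fold change with the block, 8 of the 10 lay above percentile 90 of the 13423 tested genes, between Birc5 at percentile 97.1 and Cdc20 at 90.4, while Plk1 stood at percentile 89.7 and Bub3 at 83.3.

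Levels of different genes were compared per length, with the deposited FPKM. Bub3 was the most abundant of the 10 at 47.6 ± 2.24 FPKM in knockdown and 36.9 ± 2.04 FPKM in control libraries (SD, n = 3 each), and Ttk the least, at 7.05 ± 0.679 FPKM in knockdown and 4.58 ± 0.680 FPKM in control libraries. Cdc20 followed Bub3 at 36.1 ± 3.33 FPKM in knockdown and 25.9 ± 4.96 FPKM in control libraries, then Plk1 at 24.4 ± 3.01 FPKM in knockdown and 17.6 ± 2.44 FPKM in control libraries. Aurkb came next at 15.7 ± 2.09 FPKM in knockdown and 10.5 ± 0.791 FPKM in control libraries. In both groups these 4 kept this order, with no overlap between neighbours. The other 6 lay below them, Birc5 overlapping with Aurkb in knockdown libraries. Birc5, Bub1 and Aurka were at 12.1 ± 2.63, 11.3 ± 1.35 and 10.4 ± 1.80 FPKM in knockdown libraries, where their ranges overlapped, and Aurka, Birc5 and Bub1 at 7.36 ± 1.55, 7.04 ± 1.22 and 6.97 ± 0.417 FPKM in control libraries, where they overlapped too. Mad2l1 was at 8.41 ± 1.46 FPKM in knockdown and 5.47 ± 1.02 FPKM in control libraries and Bub1b at 7.80 ± 0.611 FPKM in knockdown and 4.75 ± 0.639 FPKM in control libraries, and in both groups the ranges of Mad2l1 and Bub1b overlapped, as did those of Bub1b and Ttk.

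**Figure D3:**
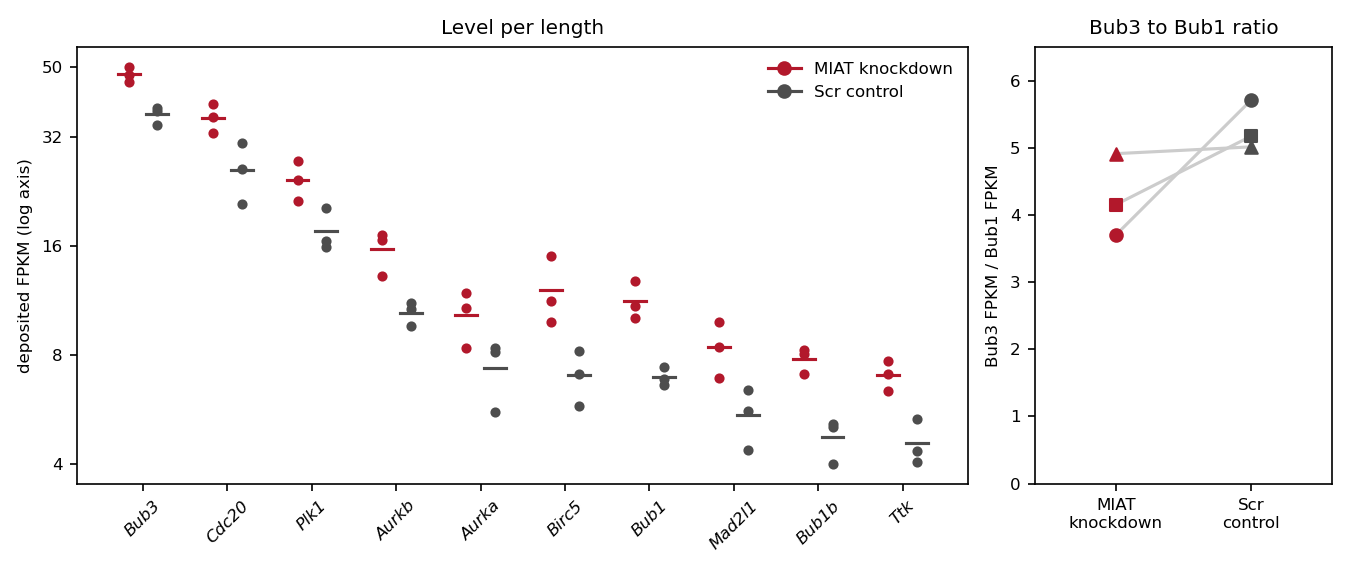
Left, deposited FPKM of the 10 genes on a log axis, ordered by the control mean, with each library as a point and the group mean as a bar; right, the ratio of Bub3 to Bub1 FPKM in each library, with lines joining same-numbered libraries. Bub3, Cdc20, Plk1 and Aurkb come in this order in both groups, and the Bub3 to Bub1 ratio is 3.70 to 4.91 in MIAT knockdown and 5.01 to 5.71 in Scr control libraries.

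Bub3 is shared by the complexes of BUB1 and of BUBR1, and its excess over Bub1 was smaller in the knockdown libraries. The ratio of Bub3 to Bub1 FPKM was 3.70, 4.15 and 4.91 in knockdown libraries, against 5.71, 5.17 and 5.01 in control libraries. The groups did not overlap and the ratio was lower in 3 of 3 pairs. The ratio of Bub3 to Bub1b was 6.14 ± 0.789 in knockdown and 7.88 ± 1.34 in control libraries (SD, n = 3 each) and overlapped, and it was lower in 2 of 3 pairs. Mad2l1 stood at 0.250, 0.233 and 0.212 of the Cdc20 level in knockdown libraries, against 0.216, 0.208 and 0.209 in control libraries. This ratio was higher in 3 of 3 pairs and overlapped between groups. Of 8 such ratios between partners, paralogs or inhibitor and target, Bub3 to Bub1 was the only one without overlap, and none was tested, since the genes were chosen with earlier results known. The ratio of Bub1 to its paralog Bub1b was 1.45 ± 0.131 in knockdown and 1.48 ± 0.147 in control libraries (SD, n = 3 each).

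Promoter sequences are shown because all 10 genes were higher in the knockdown libraries and many mitotic genes carry a cell cycle homology region, an element near the start site that MuvB complexes bind, often with CCAAT boxes bound by NF-Y. RefSeq promoters of the GRCr8 assembly, 250 bases before to 50 bases after the annotated start, were matched for 9 of the 10 genes, all but Aurkb. They were searched on both strands for TTTGAA, the usual letters of the cell cycle homology region, for its variant form TTCGAA, and for the letters CCAAT. The TTCGAA form reads alike on both strands and was counted once. TTTGAA was found in 6 of the 9 promoters, against 12.3% of the 11716 promoters of protein-coding genes tested here and 18.3% of all 33469 promoters of that length. Either form was found in 7 of 9, against 14.05% and 19.7%, and CCAAT in 5 of 9, against 37.2% and 37.5%. Bub3, Ttk, Plk1, Cdc20 and Birc5 held both, as did 5.80% of the promoters of tested genes. The matched windows of Bub1 and Aurka held none of these letters. For Aurka the bases before the annotated start end like a splice acceptor, and an ATG follows soon after it. That window may therefore not hold the Aurka promoter, though it is counted among the 9. A match is a description of the letters and not evidence that a factor binds there.

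The 7 promoters that held the homology region letters are given from 100 bases before to 50 bases after the start, 5′ to 3′ along the gene, with the matches in capitals.
Bub1b (chr3:126016967-126017116, plus strand): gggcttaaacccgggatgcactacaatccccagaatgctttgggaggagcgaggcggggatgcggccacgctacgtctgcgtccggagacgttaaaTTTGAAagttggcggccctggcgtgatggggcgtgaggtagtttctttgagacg
Bub3 (chr1:195760432-195760581, plus strand): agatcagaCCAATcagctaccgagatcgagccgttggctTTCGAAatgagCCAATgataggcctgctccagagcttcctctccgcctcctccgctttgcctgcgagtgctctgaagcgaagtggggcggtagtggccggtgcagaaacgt
Mad2l1 (chr4:97236409-97236558, plus strand): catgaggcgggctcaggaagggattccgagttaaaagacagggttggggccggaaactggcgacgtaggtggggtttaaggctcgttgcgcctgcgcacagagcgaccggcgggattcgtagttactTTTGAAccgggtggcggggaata
Ttk (chr8:93634539-93634688, plus strand): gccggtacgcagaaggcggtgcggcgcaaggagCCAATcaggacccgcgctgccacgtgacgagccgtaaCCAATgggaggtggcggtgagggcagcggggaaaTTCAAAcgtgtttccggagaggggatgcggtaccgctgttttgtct
Plk1 (chr1:186147558-186147707, plus strand): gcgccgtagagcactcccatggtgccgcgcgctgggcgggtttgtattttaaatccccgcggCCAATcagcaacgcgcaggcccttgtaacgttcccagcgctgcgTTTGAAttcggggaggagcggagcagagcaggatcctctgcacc
Cdc20 (chr5:137255750-137255899, minus strand): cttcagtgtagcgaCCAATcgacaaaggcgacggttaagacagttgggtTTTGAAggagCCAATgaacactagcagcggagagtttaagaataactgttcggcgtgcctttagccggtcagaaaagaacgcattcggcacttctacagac
Birc5 (chr10:103572046-103572195, plus strand): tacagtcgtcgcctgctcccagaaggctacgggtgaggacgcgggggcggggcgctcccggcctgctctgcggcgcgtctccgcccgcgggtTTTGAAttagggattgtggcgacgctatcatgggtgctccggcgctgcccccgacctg

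Counted from the annotated start as +1, with no position 0, the homology region letters began at -4 in Bub1b, -61 in Bub3, +28 in Mad2l1, +5 in Ttk (on the other strand), +7 in Plk1, -51 in Cdc20 and -8 in Birc5. CCAAT began at -38 in Plk1, at -30 and -67 in Ttk, and at -41 and -86 in Cdc20. In Birc5 the CCAAT match lay at -213, outside the stretch shown. Bub3 held the TTCGAA form near the start, with CCAAT at -50 and -92, and at -242 on the other strand, outside the stretch shown. Bub1b held TTCGAA as a second match at -225, also outside that stretch.

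The genes around these 10 were taken from 9 lists, and the share that rose differed between lists. It was largest for the partners of the Aurora and Polo kinases and for the list of APC/C substrates and separase. Of all tested genes 10.5% rose and 11.1% fell. Called in either direction were 21.6% of all genes with the block, 8.93% without pair 1, 5.41% without pair 2 and 30.3% without pair 3. With the block, total count scaling called 27.1% of all genes, the length correction 17.3% and DESeq2 11.8%. Of 7 tested partners of the Aurora and Polo kinases 7 rose, with a list median log2 fold change of 0.47, against -0.01 over all genes. Sgo2, which protects centromeric cohesion, was at 20.8, 23.3 and 15.9 CPM in knockdown libraries, against 12.1, 17.4 and 11.6 CPM in control libraries. Cdca8, which encodes borealin of the passenger complex, rose 1.42-fold, and Ajuba, which encodes a LIM protein that activates Aurora A, 1.40-fold. The groups were apart for Cdca8 and Ajuba and overlapped for Sgo2. Without pair 1 and without pair 2 the list had 3 calls each, and the Sgo2 call ended (log2 fold changes 0.44 and 0.62). DESeq2 with the block called 4 of the 7 and not Bora, an activator of PLK1 (adjusted p = 0.290), Incenp, the scaffold of the passenger complex (0.220), or Sgo1, which protects centromeric cohesion (0.111). These 3 were chosen after their values were seen.

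Of 6 genes for APC/C substrates and for separase (Espl1), the protease that securin holds back until anaphase, 5 rose and Pttg1, which encodes securin, did not pass, at 18.8 CPM in knockdown against 13.99 CPM in control libraries on average. Ccna2, which encodes cyclin A2, was at 62.9, 64.2 and 54.0 CPM in knockdown libraries, against 30.0, 41.9 and 36.8 CPM in control libraries, and had the largest log2 fold change of the list, 0.74. Gmnn, which encodes the replication inhibitor geminin, rose 1.54-fold and Ccnb1, which encodes cyclin B1, 1.40-fold. The list median was 0.48. Without pair 1 there were 3 calls and the Gmnn call ended (0.55), and without pair 2 there were 4.

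Of 14 other mitotic kinases 7 rose, 0 fell and 7 did not pass, with a list median of 0.40. Nek2, a centrosome kinase, was at 23.4, 22.0 and 22.7 CPM in knockdown libraries, against 12.4, 16.4 and 15.3 CPM in control libraries. Wee1, the kinase that inhibits CDK1, rose 1.54-fold and Pbk, a mitotic kinase gene, 1.53-fold, and the groups of all 3 were apart. The NIMA-related kinase genes Nek6, Nek7 and Nek9 did not pass, with log2 fold changes of -0.11, -0.08 and -0.16, nor did Cit, which encodes the cytokinesis kinase citron, at 0.01. These 4, outside the naming rule, were chosen after their values were seen. Without pair 2 there were 4 calls and the Pbk call ended (0.58).

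**Figure D4:**
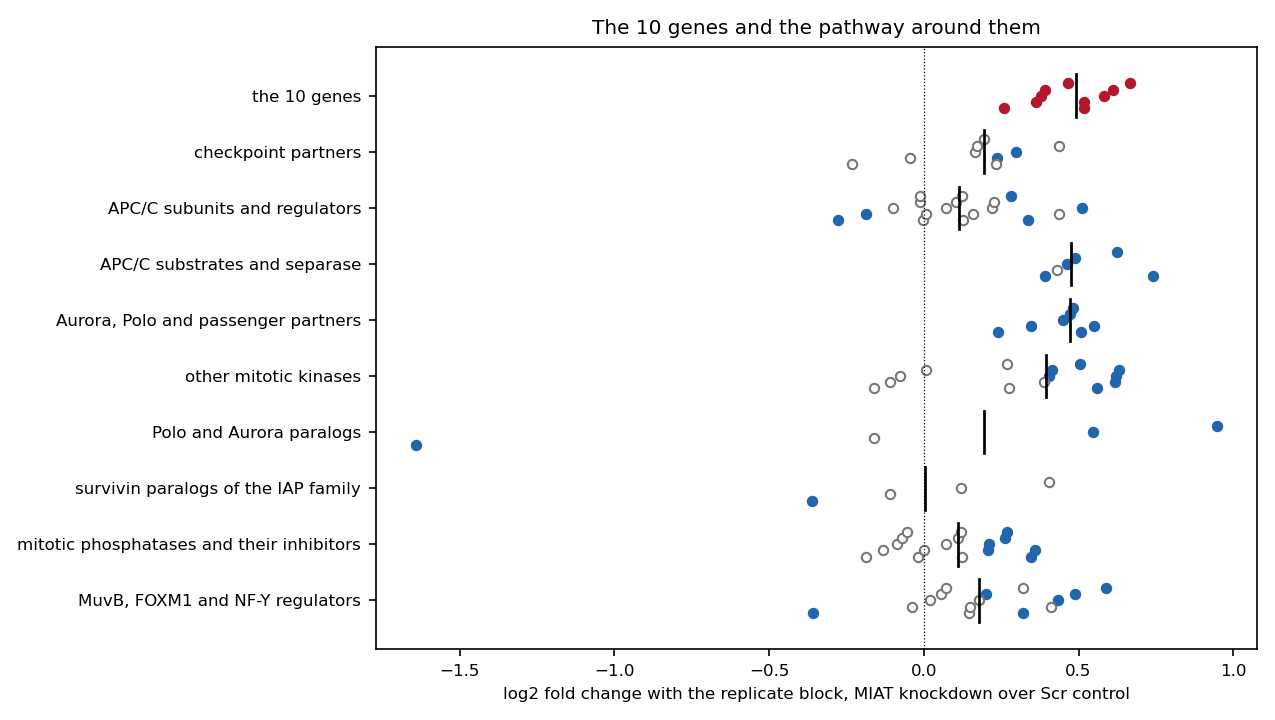
Log2 fold change with the replicate block, MIAT knockdown over Scr control (x axis), for the 10 genes (top, red) and for every tested gene of 9 lists around them (blue where the edgeR adjusted p was under 0.05, open where not); vertical bars give each list's median. The 10 genes, the APC/C substrates with separase, and the Aurora and Polo partners lie to the right of 0, with medians of 0.49, 0.48 and 0.47, while APC/C subunits have a median of 0.11.

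Of 9 other genes of the checkpoint 2 rose and 7 did not pass, with a list median of 0.19. The kinetochore gene Zwilch, part of the complex that brings dynein and MAD1 to kinetochores, rose 1.23-fold, and Zwint, which encodes a binding partner of KNL1 at the kinetochore, was at 156, 70.4 and 121 CPM in knockdown libraries, against 146, 61.0 and 91.5 CPM in control libraries. Zwint differed more between replicate numbers than between groups, and was higher in every pair. Mad1l1, which encodes the MAD1 platform for MAD2 and was chosen after its values were seen, had a log2 fold change of -0.23 that did not pass (edgeR adjusted p = 0.146 with the block). There were 0 calls without pair 2, where Zwilch stood at 0.29 and Zwint at 0.25, and 1 without pair 1, where Zwilch stood at 0.25. There were 4 without pair 3, where Zwint stood at 0.14, and 6 with total count scaling, against 30.3% and 27.1% of all genes. The Zwint call also ended without pair 3 and with the length correction (0.19). DESeq2 with the block called 0 of the list, with adjusted p of 0.114 for Zwilch and 0.124 for Zwint.

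Of 18 subunits and regulators of the APC/C, the target of the checkpoint, 3 rose, 2 fell and 13 did not pass, with a list median of 0.11. Over all tested genes 10.5% rose and 11.1% fell, so these counts set the list little apart. Ube2c, the ubiquitin-conjugating enzyme that works with the APC/C, was at 36.6, 33.1 and 32.4 CPM in knockdown libraries, against 22.2, 26.4 and 22.97 CPM in control libraries, and rose 1.43-fold with no overlap. Anapc10, a substrate-recognition subunit, rose 1.26-fold and the ubiquitin chain-extending enzyme Ube2s 1.21-fold. The subunits Anapc1 and Anapc2 fell, by log2 fold changes of 0.28 and 0.19, and are named because they are the list's 2 falls, though outside the naming rule. Both falls ended with total count scaling (-0.17 for Anapc1 and -0.08 for Anapc2) and without pair 2 (-0.26 for Anapc1 and -0.15 for Anapc2), that of Anapc2 also without pair 1 (-0.18) and that of Anapc1 with the length correction (-0.14). The list had 3 calls without pair 1, where Anapc10 ended at 0.32, and 1 without pair 2, where Anapc10 ended at 0.42 and Ube2s at 0.31. With total count scaling there were 8 calls, against 27.1% of all genes. With the length correction there were 3, against 17.3%, and Ube2s ended at 0.17. In DESeq2 with the block there were 3, against 11.8%, and Anapc10 (adjusted p = 0.184) and Anapc2 (0.165) were not called.

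Of 17 mitotic phosphatase genes and their inhibitors 6 rose and 11 did not pass, with a list median of 0.11. Ppp2r2d, a PP2A subunit of mitotic exit, rose 1.28-fold, Cdc25c 1.27-fold and Cdc25b 1.20-fold, the last pair encoding activators of CDK1. No gene of the list was called without pair 1 or without pair 2, where the log2 fold changes were 0.32 and 0.43 for Ppp2r2d, 0.34 and 0.37 for Cdc25c and 0.25 and 0.28 for Cdc25b. With the length correction 2 were called. DESeq2 with the block called 1, Ppp2r2d (adjusted p = 0.0498), and neither Cdc25c (0.133) nor Cdc25b (0.260).

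Of 15 genes of the MuvB complexes, FOXM1 and NF-Y, which control mitotic promoters, 5 rose, 1 fell and 9 did not pass, with a list median of 0.18. Mybl2, which encodes the B-MYB partner of MuvB at mitotic genes, was at 46.4, 47.3 and 37.7 CPM in knockdown libraries, against 29.8, 36.5 and 22.1 CPM in control libraries, and rose 1.50-fold. E2f5 and E2f4, repressive E2F factors of the DREAM form, rose 1.40-fold and 1.35-fold. The call of E2f5 ended without pair 1 (0.34), without pair 2 (0.64) and with the length correction (0.44). It also ended in DESeq2 with the block (adjusted p = 0.132). Rbl2, which encodes the p130 pocket protein of DREAM, was the gene that fell, by a log2 fold change of 0.36. Its call ended without pair 2 (-0.32), and as the only fall of the list it is named outside the naming rule. Foxm1 was at 24.3 CPM in knockdown against 21.9 CPM in control libraries on average and did not pass, with a log2 fold change of 0.15; it was chosen after its values were seen. Without pair 1 and without pair 2 the list had 3 calls each, against 8.93% and 5.41% of all genes. With total count scaling it had 9, against 27.1%.

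Paralogs of the 10 genes showed mixed patterns, with Plk3 and Plk2 rising as the 10 did and Plk5 and Birc6 falling. Plk3, a stress-responsive Polo-like kinase, was at 49.0, 46.1 and 26.8 CPM in knockdown libraries, against 26.4, 27.4 and 11.2 CPM in control libraries, and was higher in 3 of 3 pairs although the groups overlapped. Its fitted rise over all pairs was 1.93-fold. Plk2 rose 1.46-fold. Plk5, a Polo-like gene without a role in cell division in mammals, fell by a log2 fold change of 1.64, at 1.25, 1.40 and 0.727 CPM in knockdown and 7.20, 2.53 and 1.87 CPM in control libraries. Control library 1 stood far above the others, and without pair 1 the Plk5 log2 fold change was -1.08 and the call ended. Aurkc, the third Aurora kinase gene, was at 12.0 CPM in knockdown against 13.3 CPM in control libraries on average and did not pass. Among 4 tested paralogs of survivin in the inhibitor of apoptosis family, only Birc6 passed, and it fell by a log2 fold change of 0.36, at 198, 227 and 172 CPM in knockdown and 245, 266 and 251 CPM in control libraries. With the length correction the Birc6 log2 fold change was -0.14 and the call ended.

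The genes whose level followed the 10 most closely over the 6 libraries were named by Pearson correlation with the mean standardised log2 CPM of the 10, among 10468 other genes of at least 5 CPM. They were Eif1a, a translation initiation factor gene (r = 0.998), Pde12, a mitochondrial RNA-processing nuclease gene (0.996), the stress granule gene G3bp1 (0.996), Cdca2, which targets protein phosphatase 1 to chromatin at mitotic exit (0.996), and the nucleoporin gene Nup35 (0.993). Points of this correlation share 2 groups and 3 replicate numbers, so it describes likeness and no more. Cdca2 was at 26.8, 25.8 and 21.2 CPM in knockdown libraries, against 15.8, 18.3 and 13.6 CPM in control libraries. Eif1a was at 200.4, 198.1 and 180.5 CPM in knockdown libraries, against 154, 165 and 147 CPM in control libraries. Cdca2 differed by a log2 fold change of 0.63 and the other 4 by 0.31 to 0.32. All of these lay within the range of the 10 genes, 0.26 for Bub3 to 0.66 for Birc5. Of the 10 themselves, Ttk lay nearest to the mean profile (r = 0.990) and Bub3 farthest (r = 0.836). That profile includes each of the 10, so these values are partly built in and not comparable with those of other genes.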

How the data were processed

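The deposited counts are whole numbers per gene symbol, not normalized, per the file headers and their values. The deposited FPKM values were, for 100% of values above 0, the count over a fixed gene length and the summed counts of the library, within a relative tolerance of 1e-06. Not given in the sources used here are the aligner, counter, strand setting and build. Counts were scaled with TMM and filtered with filterByExpr (edgeR 4.0.16, R 4.3.3), and levels are CPM after TMM scaling. MIAT knockdown was tested against Scr control with edgeR's quasi-likelihood test across all 13423 genes with Benjamini-Hochberg adjustment, without and with the replicate number as a block, on 4 and 2 residual degrees of freedom. Standard errors were derived from the F statistic.

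Library titles number each group 1 to 3. After removal of group means, same-numbered libraries correlated across genes at 0.68, 0.52 and 0.58 for numbers 1, 2 and 3, and differently numbered ones at -0.56 to -0.05. Removal of group means makes the deviations within a group cancel, so the negative values of differently numbered libraries are partly built in. The labels state no pairing, so it rests on these correlations and the titles. No library was a copy of another (within groups, chi-square over degrees of freedom was 20.6 to 83.6). The biological coefficient of variation was 19.7% without and 8.09% with the block.

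Alternatives were DESeq2 1.42.0, limma-voom and limma with a trend on log2(FPKM + 1) or log2(FPKM + 0.1) in limma 3.58.1, other scalings and filters, leaving out libraries or pairs, and, chosen after seeing the data, a gene length correction (loess, span 0.5). The tests were tested on simulated data. Named genes are the 10 members, up to 3 called genes with the largest absolute log2 fold change per list (or the most abundant where none passed), and the 5 genes most like the members. Other genes named from the lists, among them Pttg1, Espl1 and Aurkc, fall outside this rule. The members and lists were chosen with earlier results of these data known. Some list genes were not analysed here.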

Additional observations from a re-analysis of the deposited data

How the results depend on the processing

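All 10 genes had log2 fold changes above 0 in each of the 26 alternatives run. The alternatives refit the same libraries, where all 10 were higher in every pair, so this adds little support. The test without the block called 0 genes and 0 of the 10, as did limma-voom, limma on log2 FPKM, other scalings and other filters without the block. DESeq2 without the block called 699 genes and 5 of the 10. With the replicate block, edgeR called 2898 genes and 10 of the 10, and with the block DESeq2 called 1590 and 8, limma-voom 3051 and 10, limma on log2(FPKM + 1) 2857 and 10, DESeq2 size factors 2961 and 10, total counts 3641 and 10, no low-count filter 3128 and 10, a mean of at least 1 CPM 2931 and 10, and the length correction 2328 and 9. Leaving out libraries without the block gave 0 calls, and with the block 1195 genes and 6 of the 10 were called without pair 1, 736 and 5 without pair 2 and 4124 and 10 without pair 3. With the block, the lowest edgeR adjusted p of any of the 10 was 0.0037 with TMM scaling and the low-count filter, 0.00034 with no filter, and 1.0e-13 when pair 3 was left out. Fewer libraries also leave fewer degrees of freedom, so an ended call is not by itself a smaller difference. The edgeR adjusted p of 1.0e-13 without pair 3, that of Bub1, is not read as stronger evidence either. With as many libraries, the edgeR adjusted p of Bub1 was 0.016 without pair 1 and 0.042 without pair 2. The 10 genes had 213 to 1423 counts per library, so none was near the low-count filter.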
